A study of Solanum lycopersicum with 12 samples.

Results

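Genes of the plant cell division machinery were followed in tomato fruits that overexpress 1 of 3 grapevine sucrose transporters. The members were the genes of the deposited table whose NR annotation holds cyclin, cell division control, cell division cycle, kinesin, aurora kinase or mitotic, with 3 exclusion terms that removed 0 genes. This gave 161 of 22827 genes. The name of cyclins and cyclin-dependent kinases covers fewer than all of them. There were 46 cyclins (10 A-type, 11 B-type, 11 D-type and 14 of other types), 14 cyclin-dependent kinases (CDKs) and 5 CDK inhibitors and regulatory subunits. The remaining 96 members were 59 kinesins, 11 CDC20 and other division cycle proteins, 10 CDC48 and related ATPases, 9 checkpoint and spindle proteins, and 7 genes that only share a word. Of these 7, 3 matched inside another word, namely 2 chloroplast ribosome-recycling factors and a calcyclin-binding protein. The other 4 are named after a cyclin or kinase, such as gene6232, annotated as cyclin-B1-2, whose KEGG term in the same table is a proteasome maturation protein. No gene was annotated as an aurora kinase in these words.

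RNA was sequenced from whole Micro-Tom fruits at 5 days post anthesis (DPA) of *VvSUC27*-OE, *VvSUC12*-OE and *VvSUC11*-OE plants and of WT plants, with 3 libraries per group and 12 in all. The transgenes were driven by the 35S promoter, which is active in most plant tissues, in the Micro-Tom background that the WT plants share. Fruits of the *VvSUC12*-OE and *VvSUC11*-OE genotypes came from the T1 generation and those of *VvSUC27*-OE from T0, each from line 5 alone, so line (and for *VvSUC27*-OE generation) cannot be told apart from the transgene. Fruits were ground whole, with the developing seeds inside. In such bulk RNA, fewer dividing cells and less of a transcript per dividing cell cannot be told apart.

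In plants, a CDK is active only when it binds a cyclin. D-type cyclins act at entry into the cycle and respond to sugar and hormones, A-type cyclins act in S phase and up to mitosis, and B-type cyclins act around the G2-to-M transition. A-type CDKs work through the whole cycle, whereas B-type CDKs, found only in plants and algae, accumulate around mitosis. In the tomato fruit, cell division dominates the first days after anthesis and is followed by cell expansion with endoreduplication, in which DNA is copied without mitosis.

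Library totals were 20530052 to 21795363 scaled counts, which are counts that the authors put on a common scale and rounded. Levels are given in FPKM, which correct for gene length. Tests were made by limma on log2(scaled count + 1). A gene entered a comparison when 3 or more of its 6 libraries reached 10 scaled counts. DEGs had to pass both an FDR of 0.01, adjusted after Benjamini and Hochberg over all genes tested, and a fold threshold of 1 on the absolute log2FC. Of the 161 members, 148 were tested in at least 1 of the 6 comparisons and 144 in all of them. The 13 members never tested reached 0.611 FPKM at most, and among them were cyclin-SDS (gene9858, a meiotic cyclin in *Arabidopsis*) and an SMR3-like CDK inhibitor (gene25651), both named after their values were seen.

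In WT fruits, 138 of the 161 members averaged at least 1 FPKM, 64 at least 10 FPKM and 3 at least 100 FPKM. The median WT level was 7.53 FPKM. Apart from gene6232, the highest cyclin-related transcript was the CDK regulatory subunit gene27218, a small docking protein of CDKs, at 185 FPKM in WT fruits. Several of the other abundant members are known for roles outside mitosis. The highest kinesin was a kinesin light chain (gene30072, 94.6 FPKM in WT fruits), the highest ATPase was a CDC48 homologue (gene16403, 138 FPKM), which unfolds ubiquitinated proteins, and the highest kinase was CDKF-4 (gene19143, 58.4 FPKM). The highest A-type cyclin was cyclin A3 (gene24443, 24.5 FPKM), the highest D-type cyclin was cyclin D3.1 (gene6521, 64.7 FPKM), and the highest B-type cyclin was a putative cyclin-B3-1 (gene19092, 13.9 FPKM).

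Across the 4 groups 1 order recurred, with *VvSUC12*-OE fruits highest and *VvSUC11*-OE fruits lowest, although most members did not take it. This order was picked from the values of these same members, so the counts below describe it and do not test it. The group mean of the scaled counts had this order in 61 of the 148 members with enough counts, or 41.2%, against 8.63% of 19451 genes. In 44 members (29.7%, against 2.31% of all genes) all 3 *VvSUC12*-OE libraries were above, and all 3 *VvSUC11*-OE libraries below, every other library. By family, these clear cases were 5 of 10 B-type cyclins, 23 of 54 kinesins, 4 of 9 checkpoint and spindle proteins, 4 of 10 CDC20 and other division cycle proteins, 3 of 9 A-type cyclins and 2 of 14 CDKs. They were fewer in the other families, with 1 of 10 D-type cyclins, 1 of 10 CDC48 and related ATPases, 1 of 12 other cyclins and 0 of 4 CDK inhibitors and regulatory subunits.

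**Figure D1:**
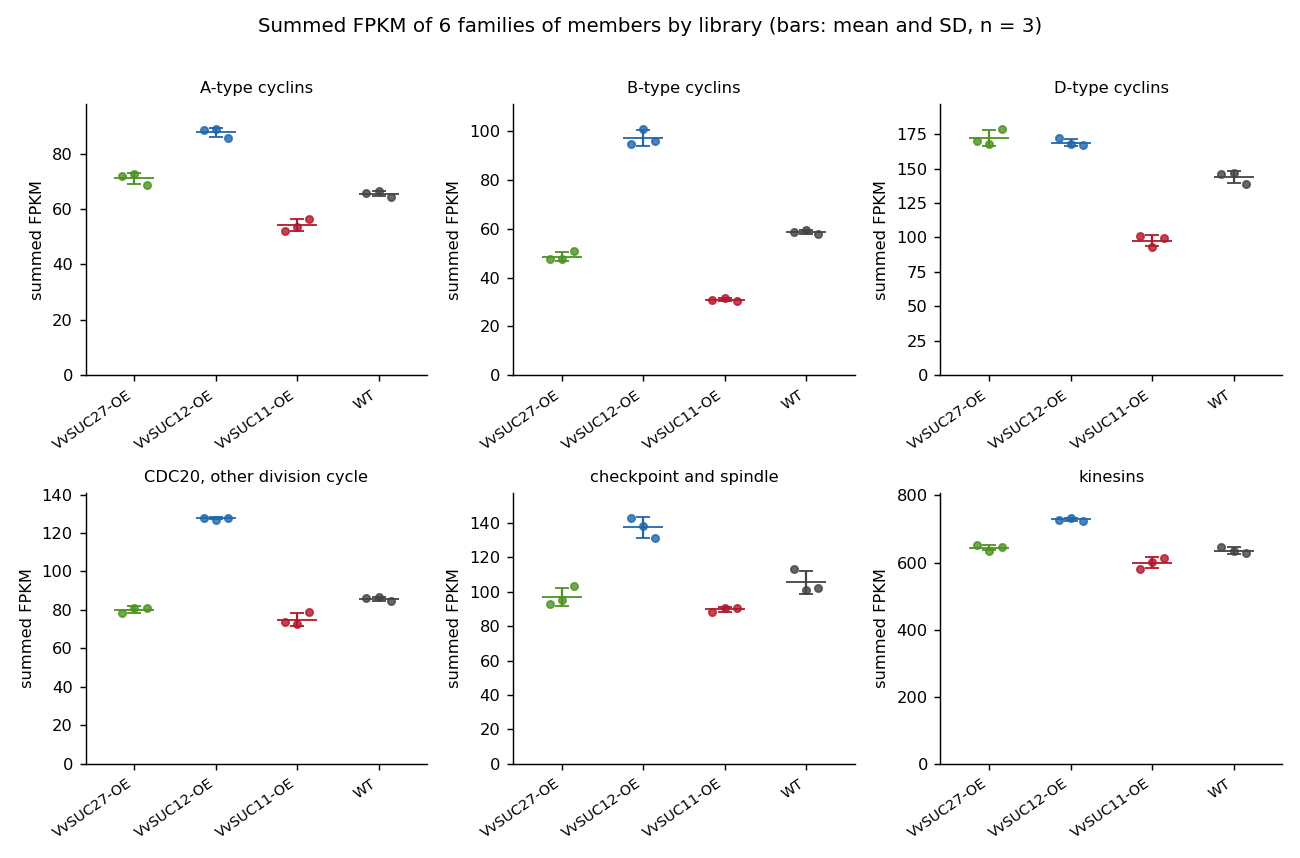
Summed FPKM (y axis, from 0) of 6 families in each library (points), with the mean and SD of the 3 libraries per group (bars); groups run along the x axis. For B-type cyclins the *VvSUC12*-OE libraries sit at 94.7 to 101, the *VvSUC11*-OE libraries at 30.3 to 31.4 and the WT libraries at 57.9 to 59.3.

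Summed over the 11 B-type cyclins, the level was 48.6 ± 1.93 FPKM in *VvSUC27*-OE, 97.2 ± 3.33 in *VvSUC12*-OE, 30.9 ± 0.551 in *VvSUC11*-OE and 58.7 ± 0.709 in WT fruits (SD, n = 3 each). For the 59 kinesins the sums were 645 ± 8.5, 729 ± 4.58, 599 ± 16.8 and 636 ± 9.17 FPKM in the same order of groups. The libraries of *VvSUC27*-OE and WT overlapped in the kinesin sum, and those of the other groups did not. D-type cyclins were also lowest in *VvSUC11*-OE fruits, with 172 ± 5.86 FPKM in *VvSUC27*-OE, 169 ± 2.65 in *VvSUC12*-OE, 97.7 ± 4.27 in *VvSUC11*-OE and 144 ± 4.36 in WT fruits. Here both *VvSUC27*-OE and *VvSUC12*-OE were above the WT, and their libraries overlapped with each other. Leaving aside the genes that only share a word, *VvSUC11*-OE was not the lowest group in 3 families. The CDK sum was 449 ± 4.16 FPKM in *VvSUC27*-OE, 504 ± 3.46 in *VvSUC12*-OE, 467 ± 9 in *VvSUC11*-OE and 458 ± 3.61 in WT fruits. The WT was lowest for the other cyclins, at 324 ± 3.79, 345 ± 4.16, 325 ± 1.53 and 293 ± 4.51 FPKM in that order of groups, and for the CDK inhibitors and regulatory subunits, at 298 ± 7.81, 341 ± 11.7, 317 ± 6.51 and 288 ± 2.08 FPKM. This last sum was mostly the regulatory subunit gene27218 in every group, so it does not show the CDK inhibitors. By the FDR alone, 3 of the 4 tested genes of this family were lower than in the WT, and 1 higher, in both *VvSUC27*-OE and *VvSUC12*-OE fruits.

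The first comparison asked which members differed between *VvSUC11*-OE and WT fruits. In *VvSUC11*-OE fruits, 25 of 147 tested members fell and 4 rose, or 17% and 2.72% of them, where 7.33% of all 19128 tested genes fell and 7.39% rose. By the FDR alone, 75 members were lower and 21 higher, which is 51% and 14.3% of the tested members, against 28.5% and 24.1% of all genes. The median log2FC was -0.31 over the members and -0.03 over all genes. Within families, the share that fell was highest for B-type cyclins, since 7 of the 10 tested fell and 9 were lower by the FDR alone. Their median log2FC was -1.22. Among kinesins 8 of 53 fell and 2 rose, and 35 were lower by the FDR alone. Among A-type cyclins 2 of 9 fell, among D-type cyclins 3 of 10, among CDKs 1 of 14, among CDC20 and other division cycle proteins 2 of 10, and among checkpoint and spindle proteins 1 of 9.

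CDKB2 (gene12151), a B-type CDK of mitosis, had 26.4, 27.2 and 27.7 FPKM in *VvSUC27*-OE, 60, 63 and 61.1 in *VvSUC12*-OE, 15.4, 15.4 and 14.3 in *VvSUC11*-OE, and 33.9, 38.2 and 34 in WT fruits. The 4 groups did not overlap, and *VvSUC12*-OE was the highest. CDKB2 fell in *VvSUC11*-OE against WT fruits, with a log2FC of -1.2 (SE 0.0724, limma FDR = 1.7e-09). In *VvSUC12*-OE fruits its log2FC against the WT was 0.8 (limma FDR = 5.82e-10), under the fold threshold. CDKB1 (gene24800) had 26.3, 25.4 and 25 FPKM in *VvSUC27*-OE, 45.9, 46.6 and 44.3 in *VvSUC12*-OE, 15.8, 16.5 and 15.6 in *VvSUC11*-OE, and 25.8, 24.4 and 25.8 in WT fruits. Here *VvSUC27*-OE and WT libraries overlapped. The log2FC of CDKB1 in *VvSUC11*-OE against WT fruits was -0.65 (SE 0.0756, limma FDR = 2.69e-06).

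The other CDKs varied less across the groups. The kinase p34cdc2 (gene29467), an A-type CDK, had 54.9, 56.2 and 54.8 FPKM in *VvSUC27*-OE, 53.4, 53.2 and 50 in *VvSUC12*-OE, 61.6, 55.5 and 60.6 in *VvSUC11*-OE, and 49.4, 49.6 and 52.3 in WT fruits. It was thus slightly higher in *VvSUC11*-OE than in WT fruits, at a log2FC of 0.22 (limma FDR = 0.00124). Another A-type kinase, gene20156, had a log2FC of 0.07, -0.02 and 0.01 in *VvSUC27*-OE, *VvSUC12*-OE and *VvSUC11*-OE against WT fruits. Outside the B-type, the absolute log2FC of the 12 other CDKs stayed under 1 in all 6 comparisons. In *VvSUC11*-OE against WT fruits their highest log2FC was 0.67, close in size to that of CDKB1 but of opposite sign. The largest values were found for CDKF-1 (gene27891, named after its values were seen), which in *Arabidopsis* activates other CDKs, with 25.3, 26.2 and 24.3 FPKM in *VvSUC27*-OE, 28.6, 27 and 28.7 in *VvSUC12*-OE, 39.4, 41.6 and 43.1 in *VvSUC11*-OE, and 26.8, 25.3 and 25.3 in WT fruits.

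**Figure D2:**
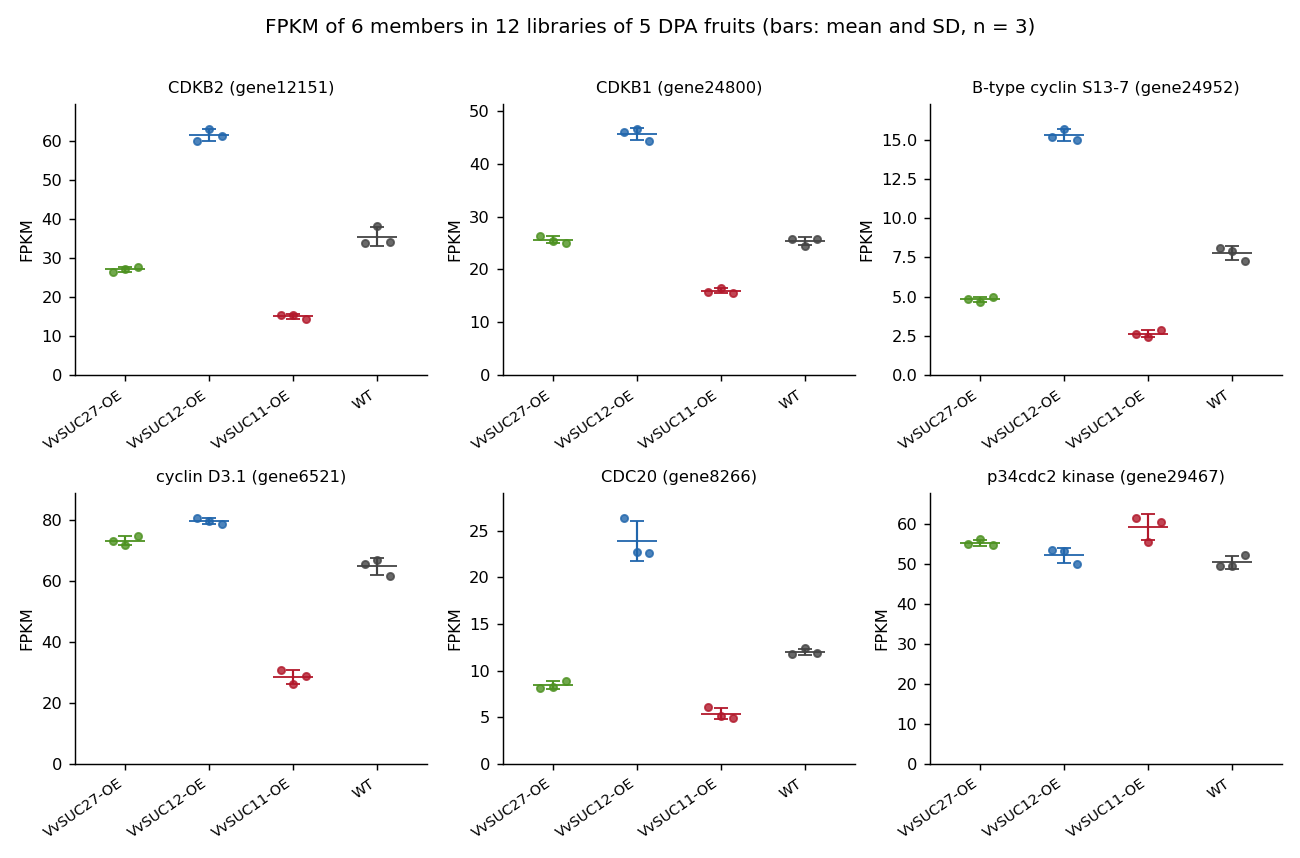
FPKM (y axis, from 0) of 6 members in each library (points) with the group mean and SD (bars, n = 3), by group on the x axis. CDKB2, CDKB1, the B-type cyclin gene24952 and CDC20 are highest in *VvSUC12*-OE and lowest in *VvSUC11*-OE fruits, cyclin D3.1 is low in *VvSUC11*-OE alone, and the p34cdc2 kinase lies between 49.4 and 61.6 FPKM in all libraries.

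The B-type cyclin gene24952, of the S13-7 type first named in soybean, had 4.85, 4.66 and 4.96 FPKM in *VvSUC27*-OE, 15.2, 15.7 and 15 in *VvSUC12*-OE, 2.6, 2.44 and 2.86 in *VvSUC11*-OE, and 8.11, 7.91 and 7.3 in WT fruits. No group overlapped with another. It fell in *VvSUC11*-OE fruits with a log2FC of -1.57 (SE 0.125, limma FDR = 4.17e-08). Falls of like size were seen for gene25204 (log2FC -1.3), gene12107 (-1.23), gene5587 (cyclin B2, -1.21) and gene7200 (-1.11), all against WT fruits. The low-level gene29440 fell as well (-2.1), with every library under 1 FPKM. Of the tested B-type cyclins, gene16270 was the only one that did not pass the FDR (log2FC -0.17).

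A further B-type cyclin, newGene_1080, is a transcript assembled by the authors and annotated as cyclin-B2-4-like. It had 2.69, 2.74 and 2.09 FPKM in *VvSUC27*-OE, 1.17, 0.615 and 1.22 in *VvSUC12*-OE and 1.65, 1.6 and 1.74 in WT fruits, and was listed at 0 in all 3 *VvSUC11*-OE libraries. Against a floor of 3 scaled counts per library, it was at least 27.2-fold lower in *VvSUC11*-OE than in WT fruits. Set against *VvSUC11*-OE, the bound was 41-fold for *VvSUC27*-OE and 15.9-fold for *VvSUC12*-OE fruits, both higher. In each of these comparisons newGene_1080 passed the filter only through the other group. Its direction, counted there among the B-type cyclins called, was therefore largely fixed by the filter. Unlike the other B-type cyclins, its level was higher in *VvSUC27*-OE than in *VvSUC12*-OE fruits, with a log2FC of 1.39 (SE 0.197, limma FDR = 1.08e-05).

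Among A-type cyclins, cyclin A1 (gene25695) had 8.74, 8.01 and 9.06 FPKM in *VvSUC27*-OE, 17.7, 19.1 and 18.3 in *VvSUC12*-OE, 4.02, 4 and 5.27 in *VvSUC11*-OE, and 10.1, 9.53 and 8.99 in WT fruits. It fell in *VvSUC11*-OE against WT fruits (log2FC -1.13, SE 0.117, limma FDR = 8.06e-07), and its *VvSUC27*-OE libraries overlapped with those of the WT. The weakly expressed gene9391 (cyclin-A2-4-like) fell too (log2FC -1.31, limma FDR = 0.000953), but not when WT replicate 2 was left out, when the log2FC was -1.12. The most abundant A-type cyclin, cyclin A3 (gene24443), was flat, at 25.5, 25.4 and 24.9 FPKM in *VvSUC27*-OE, 25, 25.1 and 24.4 in *VvSUC12*-OE, 23, 23.7 and 23.3 in *VvSUC11*-OE, and 24.9, 24.5 and 24.1 in WT fruits. None of its 3 comparisons with the WT passed the FDR. In the RefSeq annotation, 4 A-type cyclins of the C13-1 and A3-1 kinds (gene29330, gene29334, gene29336 and gene29337) are close neighbours, each within 3 genes of the next, and reads of such copies may have been split between them. The most abundant of these, gene29337, had a log2FC of 0.55 in *VvSUC27*-OE, 0.49 in *VvSUC12*-OE and 0.09 in *VvSUC11*-OE against WT fruits, and the first 2 passed the FDR.

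Cyclin D3.1 (gene6521) was the D-type cyclin with the largest difference among the abundant ones. It had 73.2, 71.8 and 74.6 FPKM in *VvSUC27*-OE, 80.7, 79.5 and 78.6 in *VvSUC12*-OE, 30.6, 26.1 and 28.9 in *VvSUC11*-OE, and 65.5, 66.9 and 61.7 in WT fruits. All *VvSUC11*-OE libraries were below all libraries of the other groups. Cyclin D3.1 fell in *VvSUC11*-OE fruits with a log2FC of -1.18 against the WT (SE 0.0589, limma FDR = 1.82e-10). The putative cyclin-D6-1 gene6864 fell (log2FC -1.02), though its log2FC was -0.95 without *VvSUC11*-OE replicate 3, and the other tested cyclin-D6-1 genes, gene5268 and gene18445, had a log2FC of -0.86 and -0.12. In the opposite direction, cyclin D1-1 (gene12265) was higher in all 3 lines, with 19.5, 19 and 21.2 FPKM in *VvSUC27*-OE, 20.1, 18.5 and 19.6 in *VvSUC12*-OE, 22.3, 21.8 and 22.3 in *VvSUC11*-OE, and 14.2, 14.3 and 13.8 in WT fruits. Its log2FC against the WT was 0.5, 0.44 and 0.61 in that order of lines, past the FDR but under the fold threshold.

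The cyclin-D2-2-like gene29278 was seen in WT fruits alone, at 0.56, 0.934 and 0.755 FPKM, and was listed at 0 in all 9 libraries of the lines. The WT mean of 17 scaled counts puts it at least 5.67-fold lower in each line, a bound that covers counting error only. It passed the filter through the WT libraries alone. Its fall, which is among those counted for each line, was therefore largely fixed by the filter. A cyclin-D3-2-like gene (gene4379, not tested and named after its values were seen) had 0.297, 0.219 and 0 FPKM in the WT libraries and was listed at 0 in the 9 libraries of the lines.

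CDC20 proteins activate the anaphase-promoting complex, which starts the destruction of B-type cyclins. The CDC20 genes named here did not all move in 1 direction. CDC20 (gene8266) had 8.14, 8.23 and 8.9 FPKM in *VvSUC27*-OE, 26.4, 22.7 and 22.6 in *VvSUC12*-OE, 6.05, 5.17 and 4.9 in *VvSUC11*-OE, and 11.8, 12.4 and 11.9 in WT fruits. It fell in *VvSUC11*-OE against WT fruits (log2FC -1.2, SE 0.0973, limma FDR = 4.8e-08). A second CDC20 gene, gene16191, had a log2FC of -0.81 (limma FDR = 5.01e-07). The third, gene19138 (named after its values were seen), had 7.41, 7.28 and 7.71 FPKM in *VvSUC27*-OE, 11.1, 13.1 and 13.4 in *VvSUC12*-OE, 16.8, 17 and 19.3 in *VvSUC11*-OE, and 9.46, 9.72 and 9.05 in WT fruits. It was thus highest in *VvSUC11*-OE and lowest in *VvSUC27*-OE fruits, with no overlap between groups (log2FC 0.92 in *VvSUC11*-OE against WT fruits, limma FDR = 8.39e-08).

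The replication factors CDC6 (gene16580) and CDC45 (gene22343), which act at replication origins, did not pass the fold threshold in any comparison with the WT. CDC45 had 7.07, 6.17 and 6.79 FPKM in *VvSUC27*-OE, 7.4, 8.03 and 6.98 in *VvSUC12*-OE, 3.11, 3.21 and 3.6 in *VvSUC11*-OE, and 5.38, 5.63 and 5.03 in WT fruits. The *VvSUC11*-OE libraries were the lowest, and those of *VvSUC27*-OE and *VvSUC12*-OE overlapped above the WT. CDC6 was highest in *VvSUC27*-OE fruits, at 6.09, 5.74 and 6.65 FPKM, against 3.53, 3.63 and 3.45 FPKM in WT fruits (log2FC 0.8, limma FDR = 3.24e-06). These 2 genes, and the checkpoint genes below other than BUB3.1, were named after their values were seen.

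Of the spindle checkpoint, which holds anaphase until all chromosomes are attached, the kinase BUB1 (gene18347) had 3.53, 3.55 and 3.61 FPKM in *VvSUC27*-OE, 6.35, 7.42 and 6.95 in *VvSUC12*-OE, 1.54, 1.69 and 1.78 in *VvSUC11*-OE, and 3.55, 3.44 and 3.75 in WT fruits. It fell in *VvSUC11*-OE against WT fruits (log2FC -1.09, SE 0.139, limma FDR = 6.95e-06). MAD2 (gene12958) had a log2FC of -0.56, BUBR1 (gene12157) of -0.62 and BUB3.1 (gene3278) of -0.32 in the same comparison, and each passed the FDR. Mitotic-spindle organizing proteins 1A (gene8320) and 1B (gene16174) did not pass the FDR in any of the 6 comparisons.

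Kinesins are motors that move along microtubules, and many of them build the spindle or the phragmoplast, on which the new cell wall forms. KIN12B (gene23385), whose *Arabidopsis* relatives sit in the phragmoplast, had 1.69, 1.83 and 1.99 FPKM in *VvSUC27*-OE, 5.03, 4.72 and 4.92 in *VvSUC12*-OE, 1.25, 1.23 and 1.29 in *VvSUC11*-OE, and 3.24, 2.88 and 3.22 in WT fruits. No group overlapped with another. KIN12B fell in *VvSUC11*-OE fruits at a log2FC of -1.38 (SE 0.105, limma FDR = 2.49e-08), as did the kinesin-related protein TKR (gene18953, -1.31) and the KIF18B-like gene8817 (-1.26). The 5 other kinesins that fell had a log2FC between -1.17 and -1.01. Of them, gene10328, gene25334 and gene27537 no longer passed the fold threshold when single libraries were left out. In contrast, the light chain gene30072 had a log2FC of 0.03, 0.05 and -0.02 in *VvSUC27*-OE, *VvSUC12*-OE and *VvSUC11*-OE against WT fruits.

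**Figure D3:**
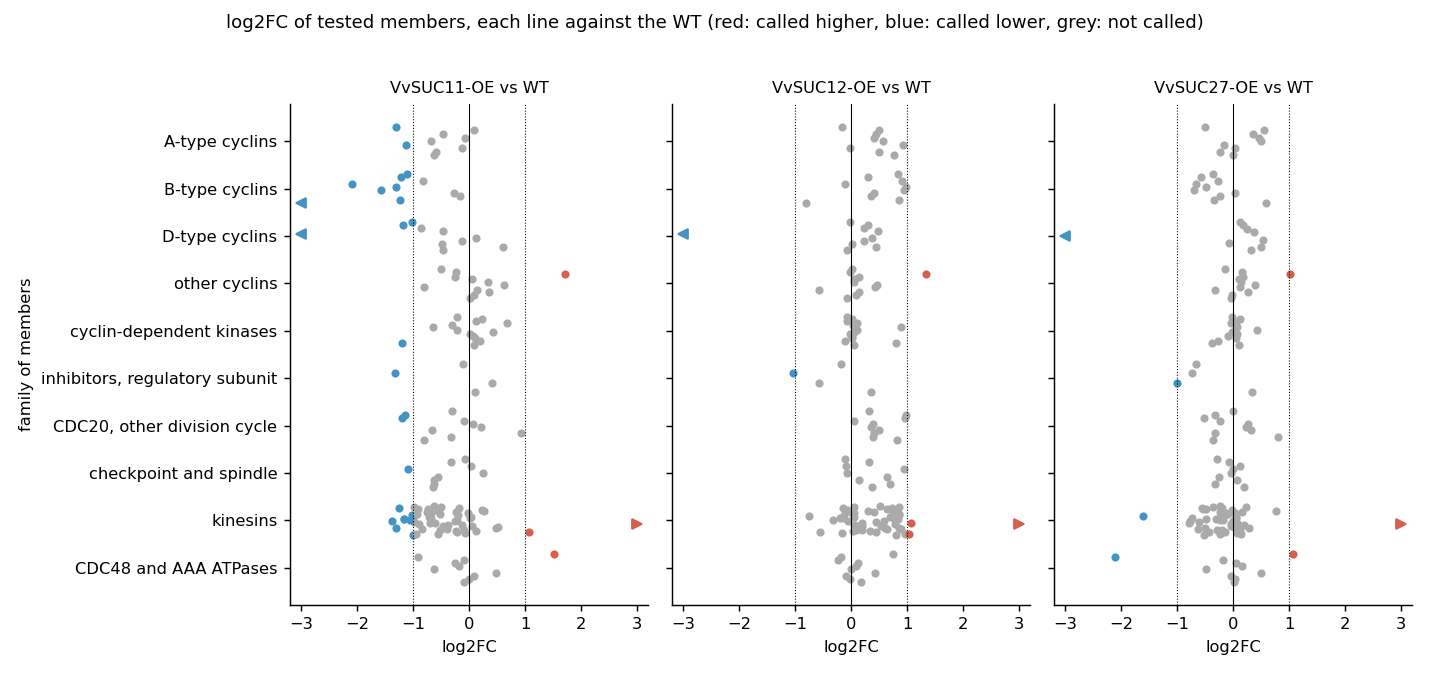
log2FC (x axis) of every tested member by family (y axis) in each line against the WT, one point per gene, with dotted lines at the fold threshold and triangles for values beyond 3. Called lower are 25 members for *VvSUC11*-OE, 2 for *VvSUC12*-OE and 4 for *VvSUC27*-OE, and called higher are 4, 4 and 3.

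In *VvSUC12*-OE against WT fruits, 4 of 147 tested members rose and 2 fell, where 3.31% of all 18900 tested genes rose and 5.3% fell. Few members passed the fold threshold. By the FDR alone, however, 69 members were higher and 13 lower, or 46.9% and 8.84% of them, against 18.2% and 21.3% of all genes. The median log2FC was 0.23 over the members and -0.01 over all genes. The kinesins KIF22 (gene21754), with 9.49, 8.75 and 9.18 FPKM in *VvSUC12*-OE against 4.5, 4.55 and 4.11 FPKM in WT fruits, and gene11643, with 6.34, 5.73 and 6.04 against 3.05, 2.8 and 2.99 FPKM, rose. KIF22 binds chromosomes in animals. Their log2FC was 1.06 (SE 0.0806, limma FDR = 3.91e-09) and 1.03 (SE 0.088, limma FDR = 1.98e-08), and without *VvSUC12*-OE replicate 1 or WT replicate 2 the log2FC of gene11643 no longer exceeded 1 (0.99 at the lowest). The number that rose was 7 without WT replicate 1.

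Of the 10 B-type cyclins tested in *VvSUC12*-OE fruits, 6 were higher by the FDR alone, 1 was lower (newGene_1080, log2FC -0.81) and 3 did not pass it, with a median log2FC of 0.63. The 6 higher ones lay under the fold threshold, and the 5 largest values were 0.97 for gene25204, 0.95 for gene24952, 0.9 for gene365, 0.85 for gene12107 and 0.84 for gene7200. CDC20 (gene8266) had a log2FC of 0.96, cyclin A1 (gene25695) 0.93, BUB1 (gene18347) 0.94 and CDKB1 (gene24800) 0.88, all past the FDR. In this comparison 7 members past the FDR lay between an absolute log2FC of 0.9 and 1, and 3 lay between 1 and 1.1.

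In *VvSUC27*-OE against WT fruits, 3 of 146 tested members rose and 4 fell, where 3.8% of all 18871 tested genes rose and 7.21% fell. By the FDR alone 22 members were higher and 36 lower, or 15.1% and 24.7% of them, against 21.6% and 22.8% of all genes. These shares lay near those of all genes for the lower members and under them for the higher ones. The median log2FC was -0.02 over the members. Of the B-type cyclins, 4 of 10 were lower and 1 higher by the FDR alone, and of the kinesins 17 of 53 were lower and 3 higher. D-type cyclins lay the other way, with 5 of 9 higher and 1 lower.

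CDK inhibitors bind CDK-cyclin complexes and block them. In the tomato fruit they have been linked to endoreduplication. CDK inhibitor 4-like (gene29603) had 14.3, 12.8 and 14.6 FPKM in *VvSUC27*-OE, 19.7, 18.8 and 19.6 in *VvSUC12*-OE, 37.1, 37.3 and 35.6 in *VvSUC11*-OE, and 27.5, 26.4 and 29.3 in WT fruits. The 4 groups did not overlap, with *VvSUC11*-OE above and both other lines below the WT. Its log2FC against the WT was -1.01 in *VvSUC27*-OE (SE 0.0622, limma FDR = 2.08e-10), -0.58 in *VvSUC12*-OE and 0.4 in *VvSUC11*-OE fruits. The first was -0.97 without *VvSUC27*-OE replicate 2 or without WT replicate 3. CDK inhibitor 1 (gene6311) had 45.1, 46 and 46.2 FPKM in *VvSUC27*-OE, 66, 63.8 and 64.7 in *VvSUC12*-OE, 64.6, 66.7 and 69.2 in *VvSUC11*-OE, and 72.8, 67.1 and 73.9 in WT fruits. It was lowest in *VvSUC27*-OE fruits (log2FC -0.66 against WT), with a log2FC of -0.19 in *VvSUC12*-OE fruits, and both passed the FDR. CDK inhibitor 7 (gene3415) fell in *VvSUC12*-OE and *VvSUC11*-OE fruits, with 2.62, 2.96 and 1.99 FPKM in *VvSUC27*-OE, 2.11, 1.91 and 2.44 in *VvSUC12*-OE, 1.87, 1.54 and 1.72 in *VvSUC11*-OE, and 4.58, 4.05 and 3.82 in WT fruits. All line libraries were below those of the WT, and the log2FC was -0.74, -1.05 and -1.33 in that order of lines. The call in *VvSUC12*-OE fruits was lost without *VvSUC12*-OE replicate 2 or WT replicate 1 (log2FC -0.98 at the smallest). The regulatory subunit gene27218 had 236 FPKM in *VvSUC27*-OE, 255 in *VvSUC12*-OE, 212 in *VvSUC11*-OE and 185 in WT fruits on average.

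**Figure D4:**
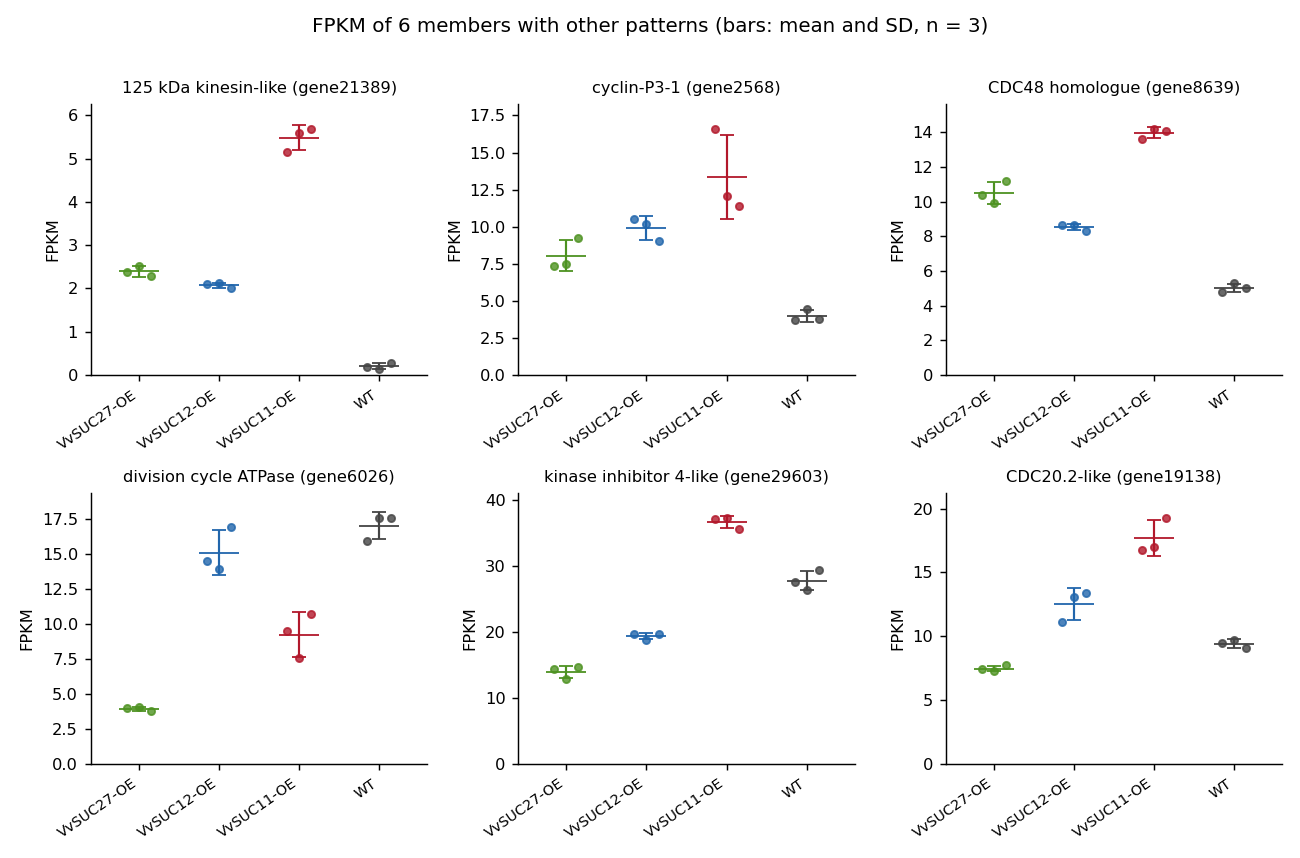
FPKM (y axis, from 0) in each library (points) with the group mean and SD (bars, n = 3) of 6 members that leave the common order, by group on the x axis. The kinesin gene21389 lies at 0.149 to 0.275 FPKM in WT libraries and at 2 or more in every library of the lines, and the ATPase gene6026 is lowest in *VvSUC27*-OE fruits at 3.8 to 4.08 FPKM.

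A few members differed from the WT in the same direction in every line. The kinesin gene21389, of a kind first described in the phragmoplast of tobacco cells, had 2.38, 2.53 and 2.28 FPKM in *VvSUC27*-OE, 2.1, 2.12 and 2 in *VvSUC12*-OE, 5.15, 5.6 and 5.69 in *VvSUC11*-OE, and 0.179, 0.149 and 0.275 in WT fruits. It rose in all 3 lines, with a log2FC of 3.55 (SE 0.217), 3.35 (SE 0.218) and 4.71 (SE 0.198), each at a limma FDR under 0.01. Cyclin-P3-1 (gene2568), of a cyclin group related to yeast phosphate signalling cyclins, had 7.38, 7.49 and 9.23 FPKM in *VvSUC27*-OE, 10.5, 10.2 and 9.01 in *VvSUC12*-OE, 16.6, 12.1 and 11.4 in *VvSUC11*-OE, and 3.7, 4.48 and 3.79 in WT fruits. It rose in each line (log2FC 1.02, 1.33 and 1.72), and in *VvSUC27*-OE fruits the call was lost without *VvSUC27*-OE replicate 3 or WT replicate 3 (0.94 at the lowest). The 3 comparisons share the WT libraries.

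The CDC48 homologue gene8639 had 10.4, 9.9 and 11.2 FPKM in *VvSUC27*-OE, 8.63, 8.64 and 8.31 in *VvSUC12*-OE, 13.6, 14.2 and 14.1 in *VvSUC11*-OE, and 4.78, 5.29 and 4.99 in WT fruits. It rose in *VvSUC27*-OE (log2FC 1.06, SE 0.0708) and *VvSUC11*-OE fruits (log2FC 1.52, SE 0.064) and had a log2FC of 0.75 in *VvSUC12*-OE fruits. The most abundant CDC48 homologue, gene16403, had 133 to 134 FPKM in *VvSUC27*-OE, 126 to 134 in *VvSUC12*-OE, 140 to 144 in *VvSUC11*-OE and 135 to 141 in WT libraries, and none of its comparisons with the WT passed the FDR. The putative division cycle ATPase gene6026 had 3.97, 4.08 and 3.8 FPKM in *VvSUC27*-OE, 14.5, 13.9 and 16.9 in *VvSUC12*-OE, 9.48, 7.54 and 10.7 in *VvSUC11*-OE, and 15.9, 17.6 and 17.6 in WT fruits. It fell in *VvSUC27*-OE fruits at a log2FC of -2.11 (SE 0.0854, limma FDR = 5.67e-13), and was also lower in *VvSUC27*-OE than in *VvSUC12*-OE and *VvSUC11*-OE fruits (log2FC -1.91 and -1.19, both DEGs). A kinesin-13A-like gene (gene1259) rose in *VvSUC11*-OE fruits (log2FC 1.06, SE 0.175), with 1.36, 1.73 and 1.72 FPKM against 0.665, 0.886 and 0.744 FPKM in WT fruits, and its log2FC was 0.99 at the lowest with single libraries left out.

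The lines were then compared with each other, which tests the difference between their effects directly. Between *VvSUC12*-OE and *VvSUC11*-OE fruits, 50 of 146 tested members were DEGs with the higher level in *VvSUC12*-OE, and 1 in *VvSUC11*-OE, where 4.74% of all 18837 tested genes were higher and 5.51% lower. With no fold threshold, 83 members were higher and 19 lower, against 24.7% and 25% of all genes. The median log2FC was 0.45 over the members and -0.01 over all genes. The DEGs higher in *VvSUC12*-OE fruits were 8 of 10 B-type cyclins (median log2FC 1.96), 5 of 9 A-type cyclins (1.09), 24 of 53 kinesins (0.7), 4 of 10 CDC20 and other division cycle proteins (0.67), 4 of 9 checkpoint and spindle proteins (0.77), 2 of 9 D-type cyclins (0.5), 2 of 14 CDKs (-0.04) and 1 of 12 other cyclins (-0.05). The 2 CDKs were both B-type CDKs. The cyclin among the other types was cyclin-U4-1 (gene1882, named after its values were seen), and the single member lower in *VvSUC12*-OE fruits was the kinesin gene21389 (log2FC -1.36).

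The B-type cyclin gene24952 had a log2FC of 2.52 (SE 0.106, limma FDR = 3.3e-13). CDC20 (gene8266) had a log2FC of 2.16 (SE 0.0907), CDCA7-like gene9196 (named after its values were seen) of 2.13, cyclin A1 (gene25695) of 2.06, BUB1 (gene18347) of 2.04, CDKB2 (gene12151) of 2 (SE 0.0585, limma FDR = 1.91e-15) and CDKB1 (gene24800) of 1.53. Cyclin D3.1 (gene6521) had a log2FC of 1.48. All libraries of both lines were apart in each of these 8 genes. Among kinesins named after their values were seen, NACK1 (gene9266), which in tobacco drives the growth of the phragmoplast, had 7.21, 7.34 and 7.85 FPKM in *VvSUC12*-OE against 2.22, 2.38 and 1.66 FPKM in *VvSUC11*-OE fruits (log2FC 1.83). The chromosome-associated kinesin KIF4A (gene11536) had 7.1, 7.56 and 7.21 against 1.83, 1.71 and 2.23 FPKM (log2FC 1.91). Phragmoplast orienting kinesin 2 (gene27537), which in *Arabidopsis* helps to place the division plane, had 5.42, 5.32 and 4.62 against 1.34, 1.29 and 1.52 FPKM (log2FC 1.88).

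**Figure D5:**
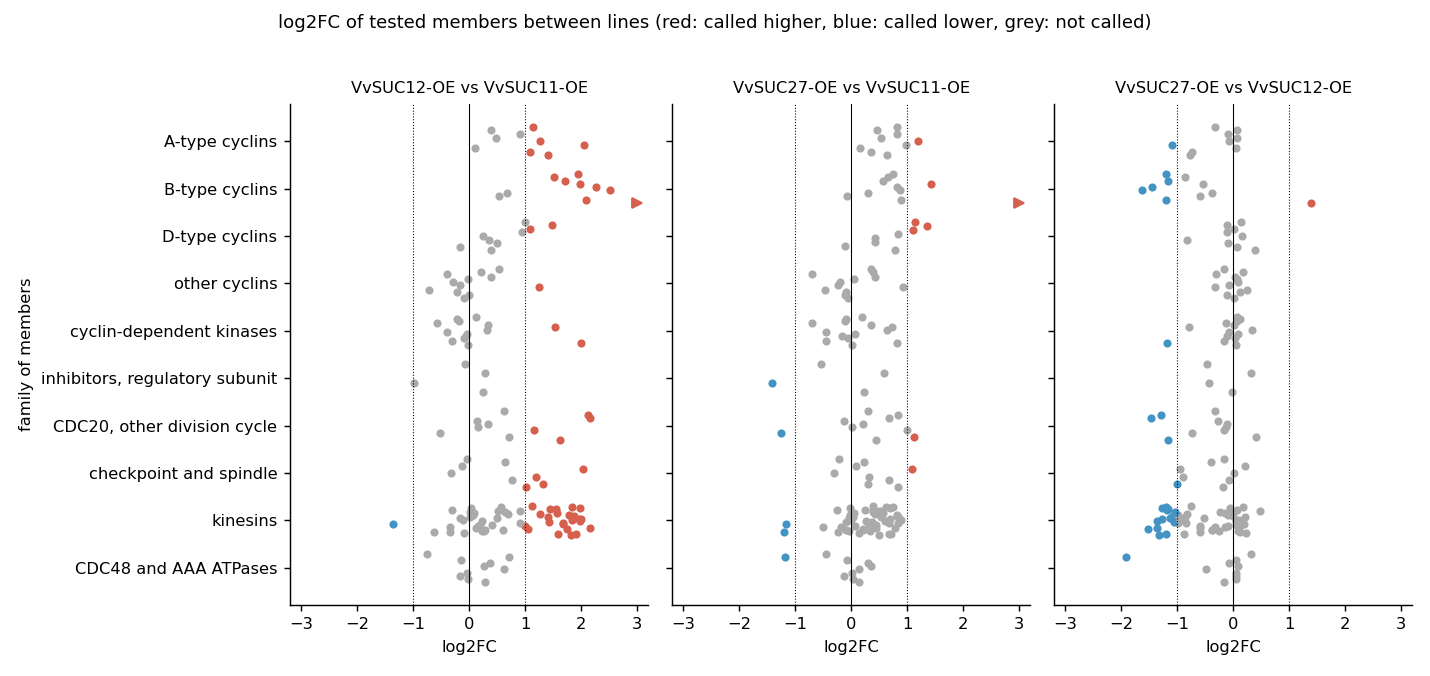
log2FC (x axis) of every tested member by family (y axis) between lines, one point per gene, with dotted lines at the fold threshold and triangles for values beyond 3. Called members are 50 higher and 1 lower in *VvSUC12*-OE against *VvSUC11*-OE fruits, 8 and 5 in *VvSUC27*-OE against *VvSUC11*-OE, and 1 and 26 in *VvSUC27*-OE against *VvSUC12*-OE.

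Between *VvSUC27*-OE and *VvSUC12*-OE fruits, 26 of 145 tested members were lower in *VvSUC27*-OE and 1 was higher, where 4.16% of all 18604 tested genes were lower and 2.64% higher. With no fold threshold, 57 members were lower and 10 higher, against 17.2% and 17.1% of all genes. The lower members were 14 of 52 kinesins, 5 of 10 B-type cyclins, 3 of 10 CDC20 and other division cycle proteins, and 1 each of the A-type cyclins, CDKs, checkpoint proteins and CDC48-like ATPases. Of 9 D-type cyclins, only gene11511 (cyclin-D2-1-like, log2FC 0.39) passed the FDR in this comparison, and their median log2FC was 0.02. CDKB2 (gene12151) had a log2FC of -1.18 (SE 0.047), gene24952 of -1.64 (SE 0.083), CDC20 (gene8266) of -1.48 (SE 0.0706) and cyclin A1 (gene25695) of -1.09.

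Between *VvSUC27*-OE and *VvSUC11*-OE fruits, 8 of 144 tested members were higher in *VvSUC27*-OE and 5 lower, where 3.67% of all 18777 tested genes were higher and 6.99% lower. By the FDR alone 70 members were higher and 19 lower, or 48.6% and 13.2%, against 26.4% and 25.9% of all genes. The 13 DEGs were 9.03% of the tested members, near the 10.7% of all genes. The higher DEGs were 3 of 8 D-type cyclins, 2 of 10 B-type cyclins, and 1 each of the A-type cyclins, CDC20 and other division cycle proteins, and checkpoint proteins. Cyclin D3.1 (gene6521) had a log2FC of 1.36 (SE 0.0543, limma FDR = 1.07e-12), CDC6 (gene16580) of 1.12, and cyclin-D6-1 genes gene6864 and gene5268 of 1.14 and 1.11. The lower DEGs were CDK inhibitor 4-like (gene29603, log2FC -1.41), the CDC20 gene gene19138 (-1.25), the ATPase gene6026 (-1.19) and the kinesins gene1259 (-1.21) and gene21389 (-1.17). The calls of gene5268, gene6864, gene29330 and gene29440 were lost without single libraries. CDKB2 (gene12151) was higher in *VvSUC27*-OE, with a log2FC of 0.82, under the fold threshold.

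Genes of the cell cycle outside these annotation words were read from a list of 79 genes (kinetochore, condensin, cohesin, anaphase-promoting complex, E2F and others). In *VvSUC12*-OE against *VvSUC11*-OE fruits, 20 of 76 tested genes were higher (26.3%, against 4.74% of all genes). Without the fold threshold 45 were higher and 6 lower (59.2% and 7.89%, against 24.7% and 25% of all genes). Against the WT, 7 of 74 fell (9.46%, near the 7.33% of all genes) and 1 rose in *VvSUC11*-OE, 0 of 76 fell and 2 rose in *VvSUC12*-OE, and 2 of 74 fell and 1 rose in *VvSUC27*-OE fruits. Without the fold threshold, 35 of the 76 genes were higher and 4 lower in *VvSUC12*-OE against WT fruits (46.1% and 5.26%, against 18.2% and 21.3% of all genes). In *VvSUC11*-OE against WT fruits, 32 of the 74 were lower and 7 higher (43.2% and 9.46%, against 28.5% and 24.1% of all genes). The summed level of the list was 793 to 794 FPKM in *VvSUC27*-OE, 900 to 934 in *VvSUC12*-OE, 814 to 860 in *VvSUC11*-OE and 775 to 813 in WT libraries. Although more genes were lower, the *VvSUC11*-OE sums were above those of the WT. The abundant sepA-like gene12458, named after its values were seen, raised them, at 182 ± 8.66 FPKM in *VvSUC11*-OE against 107 ± 1.44 in WT fruits. KNOLLE (gene15213), the syntaxin of the forming cell plate, had 11.3 ± 1.1 FPKM in *VvSUC27*-OE, 28.3 ± 1.15 in *VvSUC12*-OE, 7.07 ± 1.11 in *VvSUC11*-OE and 15.8 ± 0.521 in WT fruits (SD, n = 3 each). The kinase WEE1 (gene22796), which restrains CDKs, had 1.65 ± 0.447, 1.78 ± 0.303, 1.47 ± 0.215 and 1.41 ± 0.109 FPKM in the same order, with no comparison past the FDR.

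S phase genes, a list of 89 histones and replication proteins, summed to 11600 to 12000 FPKM in *VvSUC27*-OE, 15000 to 15300 in *VvSUC12*-OE, 8740 to 9040 in *VvSUC11*-OE and 11100 to 11700 in WT libraries. Their sum was therefore highest in *VvSUC12*-OE and lowest in *VvSUC11*-OE libraries. Few passed the fold threshold against the WT. In *VvSUC11*-OE fruits 4 of 83 fell (4.82%, under the 7.33% of all genes), and 64 were lower by the FDR alone (77.1%, against 28.5% of all genes). In *VvSUC12*-OE fruits 2 of 83 fell (2.41%, against 5.3% of all genes), and 53 were higher by the FDR alone (63.9%, against 18.2% of all genes). In *VvSUC27*-OE fruits 2 of 82 fell (2.44%, against 7.21% of all genes). By the FDR alone, 26 were higher and 14 lower (31.7% and 17.1%, against 21.6% and 22.8% of all genes). Of 83 tested between *VvSUC12*-OE and *VvSUC11*-OE fruits, 23 were DEGs higher in *VvSUC12*-OE (27.7%, against 4.74% of all genes) and 0 were lower. In *VvSUC27*-OE against *VvSUC11*-OE fruits 14 of 82 were DEGs higher (17.1%, against 3.67% of all genes) and 0 lower. In *VvSUC27*-OE against *VvSUC12*-OE fruits 2 of 82 were DEGs lower (2.44%, against 4.16% of all genes) and 0 higher.

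Several lists of markers of other tissues and stages differed between the groups as well. Of the seed list (31 storage, oleosin and late embryogenesis genes), 17 were tested in *VvSUC11*-OE against WT fruits. Of these, 12 rose (70.6%, against 7.39% of all genes), with a median log2FC of 3.43. Only 6 genes of the list were tested in *VvSUC12*-OE, and 6 in *VvSUC27*-OE, against WT fruits. Most of the 17 therefore passed the filter only with their counts in *VvSUC11*-OE libraries. For such genes a rise, and with it the size of the median, was largely fixed by the filter. The summed level of this list was 47 to 50.4 FPKM in *VvSUC27*-OE, 140 to 166 in *VvSUC12*-OE, 118 to 174 in *VvSUC11*-OE and 127 to 133 in WT libraries. A single gene made up most of this sum in all groups but *VvSUC11*-OE, namely the Lea5-like gene14568, named after its values were seen, with means of 33.3 FPKM in *VvSUC27*-OE, 128 in *VvSUC12*-OE, 59.4 in *VvSUC11*-OE and 111 in WT fruits. The sum therefore does not show the 12 genes that rose in *VvSUC11*-OE fruits. A list of 62 young green fruit genes summed to 11700 to 12200, 8510 to 8960, 9950 to 10500 and 11200 to 12000 FPKM in that order of groups, and 3 ripening genes to 90.3 to 93.2, 93.3 to 99, 129 to 140 and 57.4 to 62 FPKM. Endosperm genes summed to 8.66 to 9.39, 8.34 to 11.7, 13.8 to 16.4 and 9.43 to 10.7 FPKM in the same order. Of the 4 tested endosperm genes, 0 were DEGs in any comparison with the WT. For pollen and stamen genes the sums were 2260 to 2280, 2450 to 2520, 2490 to 2510 and 2210 to 2280 FPKM. Most of this sum was gene11014, named after its values were seen, with means of 1660, 1800, 1740 and 1660 FPKM. Vascular genes summed to 143 to 163, 146 to 151, 152 to 168 and 132 to 145 FPKM. Of the 6 lists, 0 had a gene at 0 in all libraries. Their part in the results on cyclins, CDKs and kinesins was not tested.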

How the data were processed

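Libraries were grouped by the labels. The authors mapped reads to the tomato genome (SL2.50) with TopHat2 and deposited, per gene and library, FPKM made with cuffnorm and a count. The deposited counts are a score rather than raw counts, since the authors scaled them to a common size and rounded them. A count model was therefore replaced by limma 3.58.1 (R 4.3.3) with trended eBayes on log2(scaled count + 1), fitted to all genes with at least 10 scaled counts in 3 of the 6 libraries of a comparison. P-values measure the spread between the 3 replicates, described as independent. The procedure was tested on simulated data. The deposited tables of pairwise comparisons, which hold the authors' EBSeq FDR and log2FC, were not used. KEGG gene identifiers of 114 members were matched in RefSeq for neighbours. Members and lists were chosen with earlier results of these data known. Named were, per comparison with the WT and direction, up to 12 DEGs that averaged 50 or more scaled counts in a group, the most abundant member of each family, the A-, B- and D-type cyclins, the A- and B-type CDKs and the CDK inhibitors, and others where marked. Alternatives were other scalings, pseudocounts and filters, FPKM, a common fit, a replicate block and leaving out libraries.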

Additional observations from a re-analysis of the deposited data

Results flagged for a closer look

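Members were DEGs in direct limma tests between lines, which compare the lines' effects. Between *VvSUC12*-OE and *VvSUC11*-OE fruits 50 members were higher in *VvSUC12*-OE and 1 lower, or 34.2% and 0.685% of those tested, against 4.74% and 5.51% of all genes. Between *VvSUC27*-OE and *VvSUC12*-OE fruits 1 member was higher in *VvSUC27*-OE and 26 were lower, or 0.69% and 17.9%, against 2.64% and 4.16% of all genes. Between *VvSUC27*-OE and *VvSUC11*-OE fruits 8 members were higher in *VvSUC27*-OE and 5 lower, or 5.56% and 3.47%, against 3.67% and 6.99% of all genes, so that the share called, 9.03%, was near the 10.7% of all genes. Groups of 3 libraries are too small for a test of single outlying libraries.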

How the results depend on the processing

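No called member changed sign in 1950 refits of 133 calls, and 22 calls fell short of the thresholds at least once. Both numbers leave out refits in which a called gene no longer passed the filter. With a minimum mean of 50, 24 of the 29 calls in *VvSUC11*-OE against WT fruits were still tested. The same setting kept 5 of the 7 calls in *VvSUC27*-OE against WT fruits. Calls that dropped out in this way are not among the 22 on that account. Without the fold threshold, the members past the FDR were 96 (21 higher, 75 lower) in *VvSUC11*-OE against WT, 82 (69 and 13) in *VvSUC12*-OE against WT, 58 (22 and 36) in *VvSUC27*-OE against WT, 102 (83 and 19) in *VvSUC12*-OE against *VvSUC11*-OE, 89 (70 and 19) in *VvSUC27*-OE against *VvSUC11*-OE and 67 (10 and 57) in *VvSUC27*-OE against *VvSUC12*-OE fruits. In *VvSUC12*-OE against WT fruits, members that fell numbered 1 in place of 2 with a pseudocount of 5, a minimum mean of 50 or log2(FPKM + 0.1). In *VvSUC27*-OE against WT fruits, they numbered 2 in place of 4 with a minimum mean of 50 or with log2(FPKM + 0.1), where 4 members in all were called. In *VvSUC12*-OE against *VvSUC11*-OE fruits, 2 in place of 1 were lower with no filter.

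With single libraries left out, members called were 24 to 31 in *VvSUC11*-OE against WT (3 to 4 up, 20 to 27 down), 4 to 7 in *VvSUC12*-OE against WT (3 to 7 up, 0 to 2 down), 3 to 6 in *VvSUC27*-OE against WT (2 to 3 up, 1 to 3 down), 47 to 51 in *VvSUC12*-OE against *VvSUC11*-OE (46 to 50 up, 1 to 2 down), 11 to 14 in *VvSUC27*-OE against *VvSUC11*-OE and 25 to 31 in *VvSUC27*-OE against *VvSUC12*-OE fruits. Against the WT, *VvSUC12*-OE fruits had 7 that rose and 0 that fell without WT replicate 1, and 1 that fell without *VvSUC12*-OE replicate 2, WT replicate 2 or WT replicate 3. *VvSUC27*-OE fruits had 2 that fell without WT replicate 1 or 2, and 1 that fell (3 called in all) without WT replicate 3. Between *VvSUC12*-OE and *VvSUC11*-OE fruits, 2 were lower without *VvSUC11*-OE replicate 3.

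Replicate numbers recur in every group, but samples of a number did not deviate together (correlations of -0.0348 to 0.0554 over 18 pairs, and 5 of 18 best with their own number). With a replicate block, 7 members were called in *VvSUC27*-OE, 6 in *VvSUC12*-OE and 29 in *VvSUC11*-OE against WT, and 51 for *VvSUC12*-OE against *VvSUC11*-OE, 12 for *VvSUC27*-OE against *VvSUC11*-OE and 27 for *VvSUC27*-OE against *VvSUC12*-OE.

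FPKM and scaled counts differed in the sign of the difference for the kinesins gene24639, gene7559 and gene26121, which passed the FDR in 1 or more comparisons, and for 0 called members. DESeq2 was not run, because the deposited values are not raw counts. Members under 10 scaled counts lie below what this depth can test.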
